A study of Mus musculus with 40 samples.

Results

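The regions described here are 205 tiles of the mouse genome, each 100 bp long, at which follicular B cells without Tet2 carried more DNA methylation than wild-type cells while cells without Tet3 did not. They were taken from 324168 autosomal tiles that had a methylation level in all 12 follicular libraries, and are 0.0632% of those tiles. A tile was a member if the mean of the Tet2KO libraries was at least 15 percentage points above the WT mean, if every Tet2KO value was above every WT and every Tet3KO value, and if the Tet3KO mean was within 8 points of the WT mean. The members were thus chosen by the follicular Tet2KO, Tet3KO and WT values of 9 libraries, and those values are given as a description, without a test. The double knockout (DKO) libraries and all pro-B libraries took no part in the choice.

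Tet2 and Tet3 belong to a family of dioxygenases that oxidise 5-methylcytosine to 5-hydroxymethylcytosine and further products, which can be replaced by unmodified cytosine or lost as the DNA is copied. A cell that lacks such an enzyme may therefore keep methylation at sites that would otherwise lose it, and where the enzymes overlap, the remaining enzyme may act in its place. In the B lineage, methylation is lost at many enhancers as pro-B cells of the bone marrow mature into follicular B cells, the main recirculating B cells of spleen and lymph node. The single and double knockouts make it possible to ask at which tiles more methylation goes with the loss of one enzyme and not of the other.

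The libraries came from C57/bl mice in which Tet2, Tet3 or both (DKO) were inactivated under the MB1 promoter, and from wild-type (WT) mice. MB1 encodes a signalling subunit of the B cell receptor and is active from early B cell stages, so the deletion in these models depends on a promoter of the lineage under study. DNA of pro-B and follicular B cells was measured by reduced representation bisulfite sequencing (RRBS), which reads restriction fragments rich in CpG, with 3 libraries per genotype at each stage. The follicular Tet2KO libraries were 16 (female, 8 weeks), 17 and 18 (female, 6 weeks). The Tet3KO libraries were 19 and 21 (male) and 20 (female), all at 7 weeks. The DKO libraries were 22 and 23 (male, 7 weeks) and 24 (female, 6 weeks), and the WT libraries were 13 (male, 8 weeks), 14 (male, 6 weeks) and 15 (female, 6 weeks). The pro-B libraries had the same sexes and ages in the same order: 4, 5 and 6 were Tet2KO, 7, 8 and 9 were Tet3KO, 10, 11 and 12 were DKO, and 1, 2 and 3 were WT. All Tet2KO libraries were thus female and all Tet3KO libraries came from mice of 1 age. Nothing in the labels ties each library to a mouse of its own, so the p-values below measure only the spread between libraries, which may be technical. The cell types were not checked by markers, since the table holds methylation levels by position and no expression.

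No read counts came with the levels, so their depth is unknown and no counting interval can be given. The number of tiles with a level is a rough guide. It lay between 411441 and 608149 in the follicular libraries and between 273728 and 631415 in 11 of the 12 pro-B libraries. The remaining pro-B library, Tet3KO library 8, had 24600 tiles and no value at any of the 205 members, so pro-B Tet3KO values at members rest on libraries 7 and 9. Tiles of the Y chromosome had a level at 132 to 380 positions in libraries labelled male and at 0 to 75 in libraries labelled female.

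At the members, the follicular Tet2KO libraries had median levels of 75.6, 73.5 and 75%, against 49.0, 50 and 51.2% in the WT libraries. The Tet3KO libraries had medians of 52.9, 54.5 and 51.0%. These follow from the rule. The size of the difference was mostly close to the rule's limit: Tet2KO minus WT had a median of 19.7 points, with 108 members between 15 and 20 points, 84 between 20 and 30 points and 13 at 30 points or more. In the fit of all 12 follicular libraries with limma, the standard error of this difference at the members ran from 3.08 to 16.95 points, with a median of 7.64. A member can rest mainly on 1 library. At chr11:5907101-5907200, picked after its values were seen, Tet2KO libraries had 67.9, 0.422 and 2.69%, and all WT and Tet3KO libraries had 0%. Its Tet2KO SD of 38.3 points was the highest, against a median of 5.44 points over the members.

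**Figure D1:**
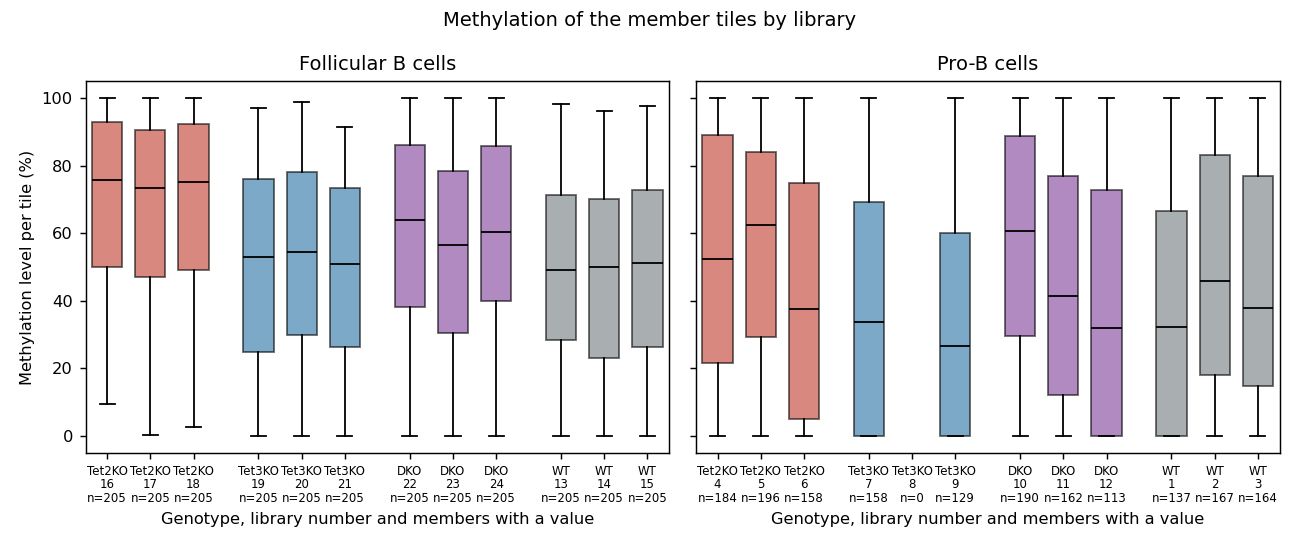
Methylation level (%) of the member tiles in each library, for follicular (left) and pro-B cells (right); boxes span the quartiles with the median as a line, whiskers reach the lowest and highest value, and n is the number of members with a value. The 3 follicular Tet2KO boxes stand highest by the rule, the 3 follicular DKO medians (56.6 to 64.0%) lie between them and those of WT (49.0 to 51.2%), and pro-B library 8 has no value.

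Most members were partly methylated in wild-type cells. The WT mean lay between 20 and 80% at 148 members (72.2%), under 20% at 40 and over 80% at 17, whereas only 11.3% of all tiles lay between 20 and 80%. A tile close to full methylation in WT cells had no room for a difference of 15 points and could not be a member, and 56.1% of all tiles were over 80%. At 12 members all 3 Tet2KO libraries were at exactly 100%, and at 45 members all 3 were at 90% or more. No WT and no Tet3KO library was at 100% at any member, as the rule requires. Since partly methylated tiles vary more between libraries than others, some comparisons below are also given beside the 36618 tiles with a WT mean of 20 to 80%, a group formed after the values were seen.

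No tile was called between follicular Tet2KO and WT cells by the test used throughout. In limma's moderated test with Benjamini-Hochberg adjustment over all 324168 tiles, a tile was called if the adjusted p was under 0.05 and the difference was at least 20 points. This called 0 tiles in either direction (0.0% of tiles), while 8936 tiles higher in Tet2KO (2.76%) and 5489 lower in Tet2KO (1.69%) had an unadjusted p under 0.05. The members held 154 of the 8936, a count that the rule itself raises, and the lowest adjusted p among the 205 was 0.212. Tet3KO minus WT at the members had a median of 2.48 points, kept small by the rule. In that comparison 0 members were called, against 12 of all tiles higher (0.0037%) and 0 lower (0.0%), and 1 member was higher and 0 were lower at an unadjusted p under 0.05 (4.04% and 1.63% of all tiles).

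The member with the greatest Tet2KO minus WT difference was chr6:88726601-88726700 (build mm9, as are all positions here). It had 87.0, 70 and 64.7% in Tet2KO libraries, 24.1, 13.6 and 20% in Tet3KO libraries, and 27.5, 6.25 and 10.3% in WT libraries. In the DKO libraries, which the rule did not see, it had 80, 57.1 and 86.7%, so every DKO value was far above every WT value. The DKO minus WT difference was 59.9 ± 10.1 points (SE), and the adjusted p of limma's test, 0.0535, narrowly missed the threshold.

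The next member by size, chr11:5908801-5908900, averaged 85.7 ± 17.7% in Tet2KO, 26.6 ± 16.8% in Tet3KO and 31.1 ± 9.88% in WT follicular cells (SD, n = 3 libraries each). Its DKO libraries spread widely, at 73.1, 43.8 and 92.3%, yet all were above the highest WT value of 41.2%. At chr4:150638201-150638300 the Tet2KO libraries had 57.1, 64.3 and 90%, against 15.6, 33.3 and 38.5% in WT libraries. There the DKO libraries had 40.9, 25.0 and 73.3%, which overlapped the WT values. At chr16:19648201-19648300 all 3 Tet2KO libraries were at 100%, against 42.1, 50 and 90.2% in WT libraries. The highest WT library, the female library 15, was thus close to the Tet2KO libraries at this tile. The DKO libraries had 63.6, 72.5 and 100%, the last of them female. The Tet3KO libraries had 66.7, 92.6 and 45.5%, the second of them female. Every female library was above every male library there, so genotype and sex cannot be told apart at this tile.

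Of the remaining 6 single tiles with the greatest differences, 3 had a DKO mean closer to Tet2KO and 3 did not. At chr1:36893501-36893600 the DKO libraries averaged 78.0 ± 14.3%, against 72.7 ± 14.4% in Tet2KO and 39.9 ± 8.28% in WT libraries (SD, n = 3 each). At chr12:54045501-54045600 the DKO mean was 90.9 ± 6.46%, against 96.5 ± 3.35% in Tet2KO and 64.5 ± 14.4% in WT libraries. At both tiles the DKO values overlapped the Tet2KO values and were above all WT values. The reverse held at chr10:69170001-69170100, where the Tet2KO libraries agreed closely at 50, 51.4 and 44.8%. The DKO libraries at that tile had 17.4, 13.6 and 29.2%, against 6.82, 18.4 and 19.6% in WT libraries. At chr3:119272301-119272400 the DKO mean of 54.6 ± 11.3% was also nearer the WT mean of 45.4 ± 5.04% than the Tet2KO mean of 82.3 ± 21.8%. The other two, chr10:77127201-77127300 and chr19:42809501-42809600, had DKO means of 47.0 ± 19.1% and 79.5 ± 15.4%, between those of Tet2KO and WT.

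The first measure independent of the choice is the same difference in libraries left out of it. The rule was applied 27 times to 2 of the 3 libraries each of Tet2KO, Tet3KO and WT, and the difference was read in the 3 libraries held out. With fewer libraries to satisfy, each choice gave 719 to 1120 tiles. In the libraries that chose the tiles, Tet2KO stood 20.4 points above WT on average. In the held-out libraries it stood 2.79 points above WT, with a range over the 27 choices of 1.32 to 4.37 points. The choices share libraries, so this range is not an error and no test was made.

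In the held-out libraries the mean levels were 58.4% in Tet2KO, 59.3% in Tet3KO and 55.6% in WT. Tet3KO minus WT was thus 3.72 points (1.08 to 6.09), as large as Tet2KO minus WT. On average 55.5% of the chosen tiles were higher in the held-out Tet2KO library than in the held-out WT library (50.4 to 60.0%). Over all tiles the same pairs of libraries gave a share of 42.2 to 43.6% and a mean difference of 0.229 to 0.674 points. Tied values count as not higher in these shares, so a low share does not mean that most tiles were lower in Tet2KO. Tiles with a WT mean of 20 to 80% had a median Tet2KO minus WT of 2.41 points, and 62.1% were higher in Tet2KO. Their median Tet3KO minus WT was 4.51 points. These medians are of differences between group means, not between single libraries, but they are close in size to the held-out differences. In libraries that did not choose the tiles, the Tet2KO difference was thus far under the size in the rule, and the Tet3KO difference was no smaller than it.

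The same rule with the enzymes exchanged, for tiles raised without Tet3 and not without Tet2, found 894 tiles, against 205. Its held-out difference was larger: Tet3KO minus WT was 21.7 points in the choosing libraries and 7.62 points (3.40 to 11.8) in the held-out ones, where Tet2KO minus WT was 2.82 points. The rule turned downwards, for tiles at least 15 points lower in Tet2KO than in WT, found 258 tiles, more than the 205 found upwards. For that rule the mean difference of -20.1 points in the choosing libraries was 0.379 points (-0.404 to 1.09) in the held-out libraries. The held-out difference of the Tet2 rule lay between those of the other rules, as the plot of choosing and held-out libraries shows.

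**Figure D2:**
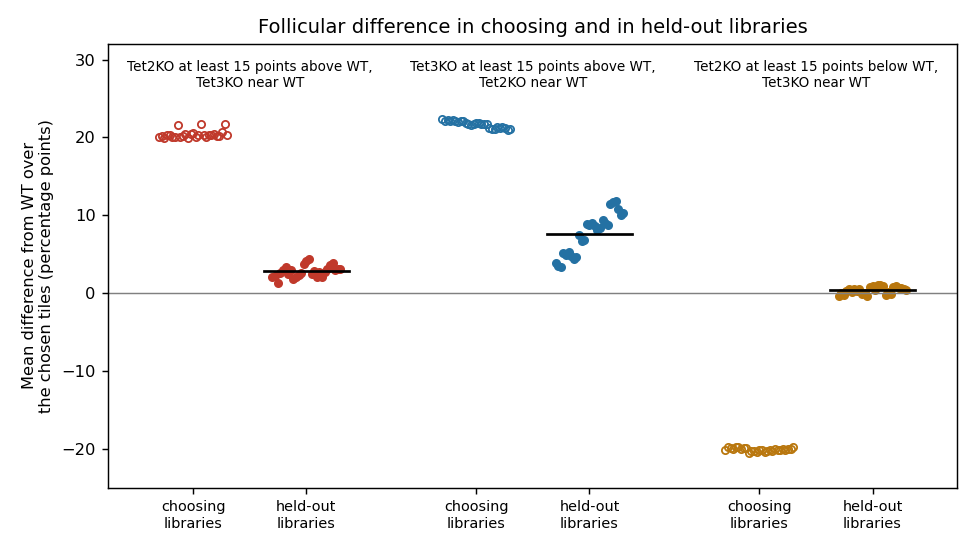
Mean difference from WT (percentage points) over the tiles chosen, for the rule as used (left), the rule with Tet2 and Tet3 exchanged (middle) and the rule turned downwards (right). Each open circle is 1 of 27 choices in its choosing libraries, each filled circle the same tiles in the held-out libraries, and the line the mean of the filled circles. Held-out means are 2.79, 7.62 and 0.379 points, against 20.4, 21.7 and -20.1 points in the choosing libraries.

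The second measure is the follicular DKO, in which Tet2 is missing together with Tet3. At the members the DKO libraries had median levels of 64.0, 56.6 and 60.4%, above the WT medians of 49.0, 50 and 51.2% and below the Tet2KO medians of 73.5 to 75.6%. DKO minus WT had a median of 10.2 points over the 205 members (-20.2 to 69.3), and 175 members had a higher mean in DKO than in WT. Over all tiles the median was 0.215 points, and over tiles with a WT mean of 20 to 80% it was 5.26 points. The WT libraries in this difference are those the rule required to be low, so part of it follows from the choice. Over the larger tile sets of the 27 held-out choices, which are not the 205 members, DKO minus the held-out WT library averaged 5.18 points (2.97 to 7.62).

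Every DKO value was above every WT value at 50 of the 205 members (24.4%), against 7.37% of all tiles and 17.6% of those with a WT mean of 20 to 80%. Every DKO value was below every WT value at 2 members (0.976%), against 2.7% of all tiles. Of the 894 tiles of the exchanged rule, 52.1% had every DKO value above every WT value and 0% had every DKO value below. The 3 DKO libraries differed among themselves: the median difference from the WT mean was 12.6 points in library 22, 5.77 points in library 23 and 9.88 points in library 24. Their SD at a member had a median of 9.58 points, close to the 9.01 points of all tiles with a WT mean of 20 to 80%.

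Limma's test with adjustment over all tiles called 4 of the 205 members higher in DKO than in WT (1.95%), against 864 of all tiles (0.267%), and none lower, where 10 tiles were called (0.00308%). At an unadjusted p under 0.05, 49 members were higher in DKO (23.9%) and 2 lower (0.976%), against 5.58% and 1.82% of all tiles. At the exchanged rule's tiles 89 of 894 were called higher (9.96%). The called members are described next; they were picked out after their values were seen. At all 4, DKO also stood above Tet3KO by the same test, which called 0.0503% of all tiles in that direction and, with no member among them, 0.00216% in the other. The calls against Tet3KO were lost in 8 of 16 alternatives at the tile on chromosome 5, in 13 of 15 at that on chromosome 9, and in 1 of 16 each at those on chromosomes 2 and 4. DKO minus Tet3KO had a median of 7.51 points over the members, whose Tet3KO values the rule kept low. Over the larger tile sets of the 27 held-out choices, DKO minus the held-out Tet3KO library averaged 1.46 points (-2.20 to 3.80). Every DKO value was above every Tet3KO value at 40 members (19.5%, against 4.26% of all tiles) and below at 5 (2.44%, against 3.34%). At an unadjusted p under 0.05, 32 members were higher in DKO than in Tet3KO (15.6%, against 3.72%) and 1 was lower (0.488%, against 2.71%).

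At chr5:36677101-36677200 the DKO libraries had 92.7, 75.4 and 87.2%, and the Tet2KO libraries 45.3, 32.1 and 55.4%. The Tet3KO libraries had 15.1, 24.7 and 22.9%, and the WT libraries 16.9, 19.4 and 11.01%. The groups formed 3 levels, with DKO highest, Tet2KO intermediate, and Tet3KO and WT overlapping. DKO minus WT was 69.3 ± 7.83 points (limma SE, adjusted p = 0.00807), the greatest of any member. DKO minus Tet2KO was 40.8 points without passing the test (adjusted p = 0.143), although no DKO value was as low as any Tet2KO value.

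At chr2:31353201-31353300 the DKO libraries were nearly fully methylated, at 94.2, 97.6 and 95.3%. The Tet2KO libraries had 85.9, 82.7 and 69.4%, the Tet3KO libraries 55.9, 56.1 and 46.9%, and the WT libraries 48.5, 54.8 and 46.4%. DKO minus WT was 45.8 ± 4.92 points (limma, adjusted p = 0.00638), a call that held under all 16 alternatives tried. The tile thus had the same order of genotypes as the one on chromosome 5, from a higher starting level.

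The tile chr4:133812701-133812800 was nearly unmethylated in WT libraries, at 2.5, 6.67 and 2.6%, and in Tet3KO libraries, at 2.5, 2.86 and 0%. The DKO libraries had 33.3, 33.3 and 39.3%, against 32, 35 and 20.4% in the Tet2KO libraries. The DKO and Tet2KO values overlapped, and both groups were above all Tet3KO and WT values. DKO minus WT was 31.4 ± 3.52 points (limma, adjusted p = 0.00775), a call lost when all 24 libraries entered the fit (adjusted p = 0.495).

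At chr9:62370201-62370300 the DKO libraries had 88.9, 75 and 83.3%, the Tet2KO libraries 53.6, 64.9 and 64.5%, and the WT libraries 32.8, 22.9 and 43.8%. The Tet3KO libraries, at 24.5, 23.9 and 31.6%, lay among the WT values. DKO minus WT was 49.3 ± 7.39 points (limma, adjusted p = 0.0310), but the call was lost in 10 of 15 alternatives, with adjusted p of up to 0.0947.

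**Figure D3:**
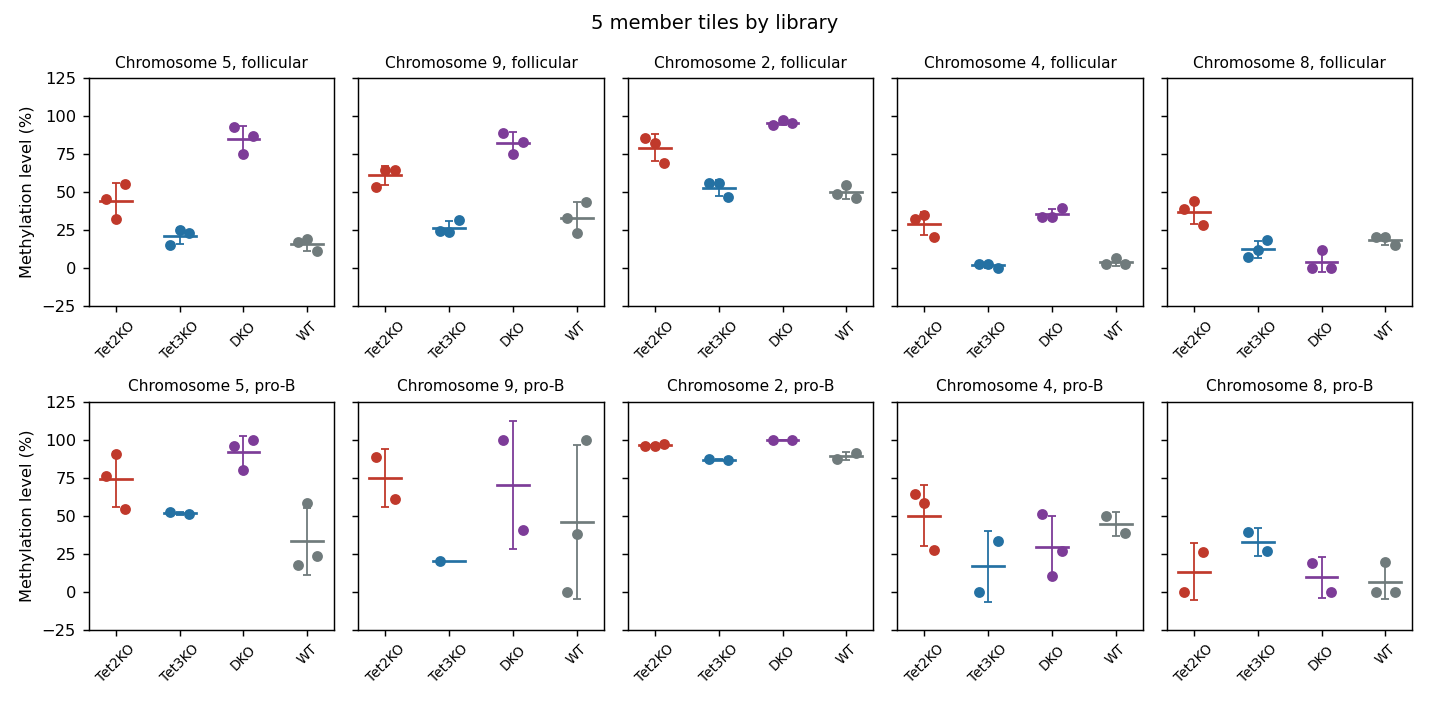
Methylation level (%) of 5 member tiles in each library of the 4 genotypes, in follicular (upper row) and pro-B cells (lower row); points are libraries, the wide line is the mean and the bar the SD, and the axis runs past 0 and 100% to hold the bars. In the upper row the first 4 tiles have all DKO points above all WT points, whereas on chromosome 8 the DKO points (0 to 12%) are below all Tet2KO points (28.6 to 44.0%).

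Against Tet2KO, the DKO libraries were mostly lower at the members. DKO minus Tet2KO had a median of -9.68 points, with 180 members lower in DKO and 25 higher, against 0.0788 points over all tiles. Every DKO value was below every Tet2KO value at 60 members (29.3%, against 3.08% of all tiles), and above at 3 (1.46%, against 5.8%). The Tet2KO libraries were chosen to be high, so this direction is in part fixed by the rule. Over the larger tile sets of the 27 held-out choices, DKO averaged 2.38 points above the held-out Tet2KO library (-0.0850 to 3.73), in the opposite direction. That value is a mean over other sets of tiles, not the 205 members measured again.

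Limma's test called 1 member lower in DKO than in Tet2KO (8 of all tiles, 0.00247%) and none higher (295 of all tiles, 0.091%). This was chr8:15012501-15012600, singled out after its values were seen, with 0, 12 and 0% in DKO libraries and 38.7, 44.0 and 28.6% in Tet2KO libraries. The Tet3KO libraries had 6.98, 11.6 and 18.2%, and the WT libraries 20.3, 20.5 and 14.9%. DKO was therefore below WT as well as below Tet2KO at this tile. DKO minus Tet2KO was -33.1 ± 4.79 points (limma SE, adjusted p = 0.0460), lost in 13 of 16 alternatives. At an unadjusted p under 0.05, 3 members were higher in DKO than in Tet2KO (1.46%) and 49 lower (23.9%), against 4.63% and 2.21% of all tiles.

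The DKO mean of each member was also placed among the WT and Tet2KO values that the rule used, as a description. The SD of the DKO libraries at a member had a median of 9.58 points. Whether the split below exceeds that spread was not tested. The DKO mean reached at least the lowest Tet2KO value at 58 members, lay between the highest WT and the lowest Tet2KO value at 66, and was within the WT values or below them at 81, of which 8 were below the lowest WT value. It was nearer the WT mean than the Tet2KO mean at 101 members. Beyond the tile on chromosome 5, the members with DKO furthest above Tet2KO were chr4:100028401-100028500, with 80, 80 and 100% in DKO and 53.7, 88.7 and 52.9% in Tet2KO libraries, and the tiles on chromosomes 9 and 2 described above.

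The opposite end held chr11:113911101-113911200, with 64.0, 25 and 66.7% in DKO and 100, 94.7 and 100% in Tet2KO libraries, against 87.5, 50 and 63.6% in WT libraries. It also held chr17:34701601-34701700, where the DKO libraries had 19.4, 19.05 and 0% and the Tet2KO libraries 46.4, 55.2 and 63.2%, against 42.3, 26.7 and 30% in WT libraries. At that tile DKO lay under all WT values. At chr8:4925801-4925900 DKO averaged 45.7 ± 18.3%, against 86.2 ± 9.32% in Tet2KO and 62.9 ± 3.13% in WT libraries (SD, n = 3 each). At chr1:7800101-7800200 DKO averaged 37.4 ± 14.8%, against 76.9 ± 10.3% in Tet2KO and 50.3 ± 3.43% in WT libraries. None of these 4 passed limma's test of DKO against Tet2KO, with adjusted p of 0.188 to 0.355.

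**Figure D4:**
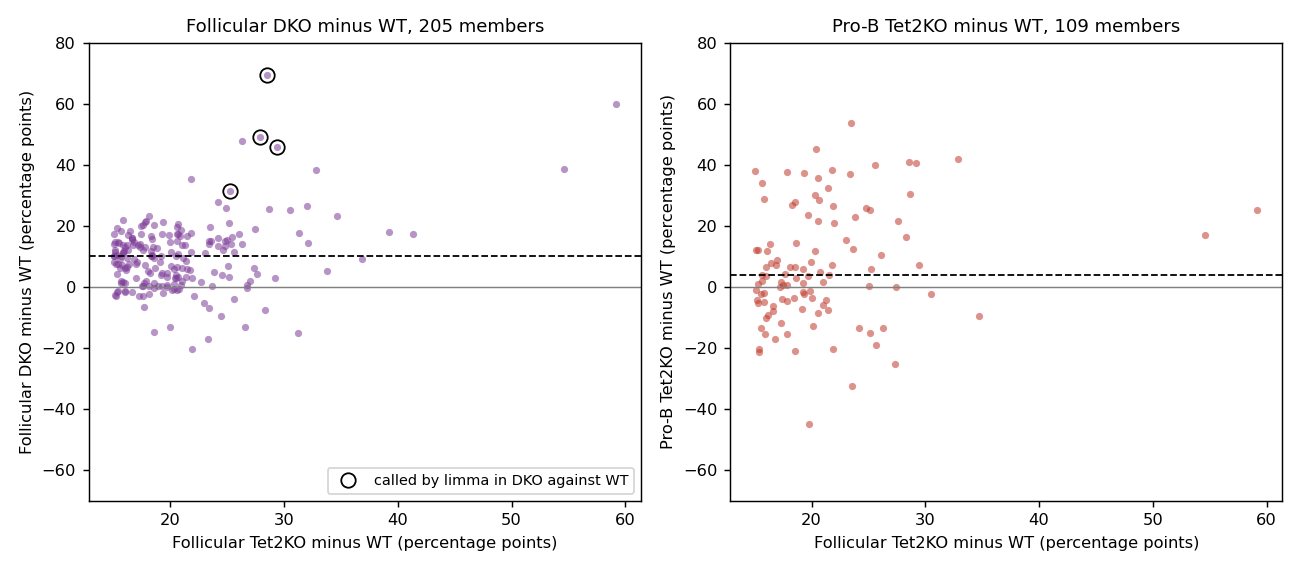
Follicular DKO minus WT (left, 205 members) and pro-B Tet2KO minus WT (right, 109 members tested) against the follicular Tet2KO minus WT difference that the rule used, all in percentage points; each point is a member, the dashed line is the median and rings mark the 4 members called by limma in DKO against WT. The dashed lines lie at 10.2 and 3.81 points, and the pro-B points spread far above and below 0.

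Members lay apart from each other along the genome. Joined where they were within 500 bp, the 205 tiles formed 201 regions, and only 4 regions held 2 members. All 19 autosomes had members, between 4 on chromosome 6 and 20 on chromosome 4. As a share of a chromosome's tiles, members ran from 0.0248% on chromosome 6 to 0.0877% on chromosome 17. Both tiles of a joined region passed the same rule, so their agreement in Tet2KO, Tet3KO and WT libraries follows from the choice. Of the follicular libraries, only those of DKO took no part in it. At chr4:32883901-32884100 the members averaged 70.8 ± 11.2% in Tet2KO, 41.2 ± 5.63% in Tet3KO, 43.0 ± 4.12% in DKO and 43.5 ± 14.5% in WT libraries (SD, n = 3 each). DKO was at the WT level there, and likewise at chr15:76396701-76396900, with 67.1 ± 8.37% in Tet2KO, 48.9 ± 12.6% in DKO and 46.0 ± 2.93% in WT libraries.

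At chr1:184187801-184188100 the DKO mean of 55.1 ± 10.4% was nearer the WT mean of 48.8 ± 11.4% than the Tet2KO mean of 67.5 ± 13.2%. The region chr2:29934001-29934200 was the exception. Its libraries had 32.1, 27.7 and 29.2% in Tet2KO, 10.6, 21.02 and 15.9% in Tet3KO, 28.6, 33.3 and 23.03% in DKO and 10.1, 10.6 and 14.5% in WT. There the DKO libraries overlapped those of Tet2KO and stood above all Tet3KO and WT libraries. In each joined region library 16 was the highest of the Tet2KO libraries. It had 83.3% on chromosome 4, against 67.5 and 61.6% in libraries 17 and 18. On chromosome 15 it had 76.8%, against 61.8 and 62.8%, and on chromosome 1 it had 82.8%, against 59.9 and 59.9%. Pro-B Tet2KO library 4, of the same sex and age as library 16, was the highest pro-B Tet2KO library in these regions. It had 90.2% on chromosome 4, 97.8% on chromosome 15 and 86.8% on chromosome 1. On chromosome 2 it had 17.1%, below the 18.2% of library 5. Whether the stages share this pattern was not tested.

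The tiles next to members, which the rule did not choose, carried little of the difference. Over 179 tiles that adjoin a member, with a median WT level of 64.3%, Tet2KO minus WT had a median of 3.69 points. Of these, 69.3% were higher in Tet2KO, against 49.8% of all tiles and 62.1% of tiles with a WT mean of 20 to 80%. Over 393 tiles within 500 bp the median was 1.89 points, over 152 tiles further off, up to 1000 bp, it was 0.173 points, and over all tiles it was 0. At the adjoining tiles Tet3KO minus WT was 1.92 points and DKO minus WT 3.19 points. One sequencing read can cover adjoining tiles, so these are not independent of the members.

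The third measure is the pro-B stage, in libraries the rule did not see. The labels do not say whether a pro-B and a follicular library of the same genotype, sex and age came from 1 mouse, so the stages may not be independent. Of the 205 members, 109 had at least 2 values in every pro-B genotype and could be tested; the other 96 could not. Over these 109, Tet2KO minus WT had a median of 3.81 points, with 67 members higher and 41 lower in Tet2KO. Tet3KO minus WT had a median of -4.42 points and DKO minus WT one of 2.31 points, and over all 210376 tiles tested each median was 0. Leaving out 1 library gave -6.28 to -1.32 points for Tet3KO and -0.359 to 3.73 points for DKO, whose median was below 0 without library 10. The standard error of a member's Tet2KO minus WT difference had a median of 14.3 points, against a median follicular difference of 19.7 points.

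No member was called in pro-B cells by limma's test over all tiles. In Tet2KO against WT, 0 members were called, against 10 of all tiles higher (0.00475%) and 6 lower (0.00285%). In Tet3KO, where library 8 gave no value, 0 were called, against 33 higher (0.0157%) and 59 lower (0.028%). In DKO, 0 were called, against 29 higher (0.0138%) and 12 lower (0.0057%). At an unadjusted p under 0.05, 6 members were higher and 1 lower in Tet2KO, which is 5.50% and 0.917% of the members against 2.24% and 1.23% of all tiles. In Tet3KO 3 were higher and 5 lower (2.3% and 1.8% of all tiles), and in DKO 5 were higher and 1 lower (2.97% and 1.2% of all tiles). The lowest adjusted p at a member was 0.549 in Tet2KO, 0.481 in Tet3KO and 0.207 in DKO.

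The pro-B differences were also set beside those of tiles partly methylated in follicular WT cells. Where both groups had at least 2 values, Tet2KO minus WT had a median of 4.23 points over 163 members and 3.47 points over 30083 tiles with a follicular WT mean of 20 to 80%. For Tet3KO the medians were -5.37 points over 114 members and 0.197 points over such tiles, and for DKO they were 3.45 and 4.80 points. Every pro-B Tet2KO value was above every WT value at 10 of 93 members with all 6 values (10.8%), against 3.79% of all tiles and 8.68% of tiles with a follicular WT mean of 20 to 80%, and below every WT value at 1 (1.08%, against 2.51% of all tiles). Every DKO value was above every WT value at 9 of 83 members (10.8%), against 3.78% of all tiles and 9.45% of such tiles, and below at 1 (1.20%, against 1.44% of all tiles). For Tet2KO and DKO, the members' shares were close to those of tiles with such a follicular level.

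The pro-B libraries of a genotype were spread widely. At the 70 members with a value in all pro-B libraries but library 8, the mean level was 45.5, 43.4 and 36.3% in Tet2KO, 28.9 and 32.2% in Tet3KO, 46.9, 34.9 and 34.1% in DKO, and 28.1, 35.8 and 31.7% in WT. The Tet2KO libraries were all above the WT libraries, the last of them narrowly. The Tet2KO libraries 4 and 5 also had more tiles with a level than any WT library, 532170 and 631415 against 314437 to 425669, whereas library 6, with the lowest Tet2KO mean, had 402283. In DKO, library 10 had both the most tiles (556257) and the highest mean. What part the number of tiles has in these levels was not tested. Without Tet2KO library 6 the median of Tet2KO minus WT over the tested members was 9.07 points, and without library 5 it was 1.60 points.

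The pro-B median was larger over the members with a larger follicular difference. Over the 50 tested members with a follicular Tet2KO minus WT difference of 20 points or more, the pro-B median was 12.1 points and 34 were higher in Tet2KO. Over the 59 tested members of 15 to 20 points the pro-B median was 1.02 points and 33 were higher in Tet2KO. The difference between these classes was not tested. In follicular DKO minus WT the same classes had medians of 11.4 and 9.42 points.

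Among the 10 members with no overlap in pro-B cells, picked out after their values were seen, chr11:97197101-97197200 had the greatest difference. Its pro-B libraries had 94.6, 68.5 and 100% in Tet2KO and 100% in all 3 DKO libraries, against 29.6, 31.0 and 41.5% in WT. In follicular cells it had 94.7, 85.3 and 82.4% in Tet2KO and 96.6, 70.5 and 83.5% in DKO, against 66.1, 51.6 and 74.2% in WT. The pro-B Tet3KO libraries had 46.7 and 100%, so at that stage both Tet3KO libraries were above all WT libraries too. At chr17:5101301-5101400 the pro-B libraries had 93.8, 100 and 100% in Tet2KO and 90.3, 100 and 100% in DKO, against 59.1, 47.9 and 73.8% in WT. The pro-B Tet3KO libraries, at 100 and 77.1%, were above WT as well.

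The tile chr5:104365101-104365200 had Tet2KO libraries above all others at both stages. Its pro-B libraries had 93.1, 97.5 and 100% in Tet2KO, 53.0 and 50.6% in Tet3KO, 59.0 and 64.0% in DKO, and 83.0, 58.4 and 73.8% in WT. Its follicular libraries had 96.9, 89.5 and 88.9% in Tet2KO and 53.2, 86.0 and 55.1% in Tet3KO. They had 61.8, 63.9 and 84.3% in DKO, and 60.5, 60.4 and 78.9% in WT. The female Tet3KO, DKO and WT libraries, at 86.0, 84.3 and 78.9%, stood above all male follicular libraries. In pro-B cells the Tet3KO and DKO libraries with a value were all male, and the female WT library, at 73.8%, lay between the male ones. Genotype and sex cannot be told apart at this tile. At neither stage were all DKO libraries above all WT libraries. The tile of chromosome 5 with the greatest follicular DKO difference, chr5:36677101-36677200, had pro-B values of 76.6, 91.0 and 54.5% in Tet2KO, 52.3 and 50.9% in Tet3KO, 96.0, 80 and 100% in DKO, and 17.2, 58.5 and 23.5% in WT. Its pro-B DKO minus WT difference was 58.9 points without passing limma's test (adjusted p = 0.487), and it was called when all 24 libraries entered the fit (adjusted p = 0.0223).

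The rule's limits cut through a dense range of values. The members just inside the limit of 15 points, chr3:148774901-148775000 and chr4:140401601-140401700, had Tet2KO minus WT differences of 15.03 points each. The tiles just outside, chr13:67993701-67993800 and chr9:123389501-123389600, had 14.99 and 14.97 points. At the limit of 8 points, the members chr3:145650101-145650200 and chr19:7000701-7000800 had Tet3KO minus WT differences of -7.92 and 7.80 points. The tiles chr5:140914801-140914900 and chr5:135422801-135422900 were left out with 8.03 and 8.07 points. Leaving 1 of the 9 libraries out of the rule gave 245 to 606 tiles and kept 128 to 183 of the 205 members, with the fewest kept without WT library 15 and the most tiles found without Tet2KO library 17.

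Sex differs between the groups, since all Tet2KO libraries were female. On the autosomal members the female WT library 15 had a mean level of 49.3%, against 49.2 and 47.1% in the male WT libraries 13 and 14. The female DKO library 24 had 60.1%, against 60.8 and 55.2% in the male DKO libraries. The female Tet3KO library 20 had 53.0%, against 50.5 and 48.4% in the male Tet3KO libraries. For WT and Tet3KO these levels follow in part from the rule, which kept every one of their libraries below every Tet2KO library, so they do not separate sex from genotype. Single members can differ from these means. At chr15:55868001-55868100, picked after its values were seen, the female WT, Tet3KO and DKO libraries had 74.7, 71.3 and 82.6%. The male libraries there had 46.5 and 43.3% in WT, 55.3 and 54.3% in Tet3KO, and 47.2 and 46.0% in DKO. The Tet2KO libraries, all female, had 76.4, 78.3 and 83.3%. How many members separate by sex in this way was not counted. In pro-B cells, female libraries alone gave a median Tet2KO minus WT of 5.22 points over 105 members. A single WT library stands for the group there.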

How the data were processed

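RRBS levels of 24 libraries (2 stages, 4 genotypes, 3 libraries each) were analysed; the RNA samples were not analysed here. The authors deposited 1 table with the methylated fraction of each 100 bp tile, given here as a percent. The submitters' processing notes name Trim Galore and methylKit and the builds mm9 and hg19; mouse tiles were read as mm9, whose chromosome 1 reaches past the last tile, at 197193600. Aligner, conversion rate and coverage minimum are not given in the sources used here. A low coverage minimum can widen the spread and put levels at exactly 0 and 100%.

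Differences are of group means in percentage points. Tests used limma 3.58.1 (R 4.3.3; moderated variance with trend, two-sided, Benjamini-Hochberg over all tiles), checked on simulated data, on the 12 follicular libraries (324168 autosomal tiles with all values) and on the 12 pro-B libraries alone (210376 tiles with at least 2 values per genotype; missing values were left out, not filled in). A call needed an adjusted p under 0.05 and 20 points. No columns of the table were left unused. The pro-B fit kept to its own libraries, so it takes neither means nor spread from the libraries the rule used; the follicular fit of DKO takes both.

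The members, the rule and the tests were chosen with earlier results of these data known. Named are regions of 2 or more members, the 10 single members with the greatest Tet2KO minus WT difference, members called in pro-B Tet2KO or DKO (none), the 4 members with the highest and the 4 with the lowest DKO minus Tet2KO difference, and the tiles next to the rule's limits; other named tiles are marked as picked after their values were seen. Gene names and sequences are not given, since no annotation or genome of mm9 was used here. Alternatives changed the rule's limits, the libraries, the scale, the sex term, the samples in the fit, the centring and the size of a call.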

Additional observations from a re-analysis of the deposited data

Results flagged for a closer look

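One member had its difference in opposite directions at the 2 stages, with no overlap at either: 1 tile, chr12:89593001-89593100. In follicular cells it had 58.0, 38.6 and 25.0% in Tet2KO libraries, against 16.1, 12.1 and 11.3% in WT libraries. In pro-B cells it had 13.7, 24.8 and 0% in Tet2KO libraries, against 38.1, 28.9 and 47.3% in WT libraries, a difference of -25.3 points. All pro-B DKO libraries, and the pro-B Tet3KO libraries with a value, were also below every WT library at this tile. The pro-B direction was thus shared by the other knockouts and not particular to Tet2KO. The follicular direction was required by the rule, and the difference between the stages was not tested.

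The sex chromosomes, outside the rule, held 181 tiles that meet every other part of it, of 8201 with all 12 follicular values. All were on chromosome X (2.21% of its 8176 tiles) and none of the 25 tiles of chromosome Y met it, while 6 tiles of chromosome X met the rule turned downwards. At the 181 tiles the mean level was 41.4, 38.0 and 39.6% in the female Tet2KO libraries 16, 17 and 18. It was 26.4% in the female and 5.10 and 5.51% in the male Tet3KO libraries, 32.9% in the female and 5.70 and 5.72% in the male DKO libraries, and 25.8% in the female and 4.78 and 4.77% in the male WT libraries. Females thus stood above males in the 3 genotypes with both sexes, and the 3 Tet2KO libraries stood above the other females. For the WT and Tet3KO females the latter follows from the rule, in which the DKO female took no part. Since Tet2KO had no male library, genotype and sex cannot be told apart at these tiles.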

How the results depend on the processing

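No alternative turned the sign of a difference that had been called. The number of tiles that meet the membership rule was 97 at 20 points, 133 with Tet3KO within 5 points of WT, 895 without the demand of no overlap, 386 with X and Y kept and 894 with the enzymes exchanged; without 1 library it was 245 to 606. The pro-B Tet2KO minus WT median was 12.1 for members of 20 points or more. Without 1 library the pro-B medians were 1.60 to 9.07 in Tet2KO, -6.28 to -1.32 in Tet3KO and -0.359 to 3.73 in DKO, so the DKO direction rests on library 10. With all 24 libraries in the fit, pro-B calls were 1 in Tet2KO, 1 in Tet3KO and 3 in DKO, and with a sex term 1 in Tet2KO; without 1 library they were 0 to 1 in each. Follicular DKO minus WT calls were 2 with all 24 libraries, 7 with centred libraries, and 3 to 7 without 1 library, 7 without DKO library 23. DKO minus Tet2KO calls were 0 on the logit scale, 0 with all 24 libraries, 0 with a sex term and 0 to 1 without 1 library. The follicular medians were 7.31 to 11.8 for DKO minus WT and -12.4 to -7.97 for DKO minus Tet2KO without 1 library. The held-out Tet2KO minus WT difference was 4.19 points when 20 points were asked. Of the values of single named tiles under alternatives, 1137 kept their sign and side of the threshold, 47 lost a call, 4 gained one and 27, none of them a call, turned sign. With a sex term these were chr16:19648201 (3.73 points, follicular DKO minus Tet2KO), chr11:5908801 (-0.567, pro-B DKO minus WT) and chr8:15012501 (-0.381, likewise), and with centred libraries chr11:5908801 (-1.17, likewise) and chr6:88726601 (-0.0952, follicular DKO minus Tet2KO). Without 1 library the differences at tiles that turned sign ran, in follicular cells, from -5.28 to 4.44 at chr10:69170001 and from -0.930 to 22.6 at chr16:19648201 for DKO minus Tet3KO, and from -0.413 to 13.6 at chr1:36893501 and from -5.32 to 9.45 at chr6:88726601 for DKO minus Tet2KO. In pro-B cells they ran, for Tet2KO minus WT, from -3.16 to 28.0 at chr11:5908801, from -1.48 to 17.2 at chr4:133812701, from -0.335 to 47.7 at chr6:88726601 and from -6.50 to 19.9 at chr8:15012501. For pro-B DKO minus WT they ran from -11.2 to 12.1 at chr11:5908801, from -5.88 to 21.04 at chr17:34701601, from -0.255 to 47.7 at chr6:88726601 and from -6.50 to 12.2 at chr8:15012501. The causes of these shifts were not tested.

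No paired analysis was possible because the genotypes share no library number. No member had a value in all 12 pro-B libraries, and no female pro-B Tet3KO library had a value at a member, so those settings gave none. With unknown depth, a level of 0 or 100% may rest on few reads, and 3 libraries per group limit every test.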
